A study of Mus musculus with 6 samples.

Results

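Desmosomes are the spot junctions that hold keratinocytes together. In them the desmosomal cadherins, the desmogleins and desmocollins, bridge neighbouring cells, plakoglobin and the plakophilins bind their tails, and desmoplakin ties this plaque to the keratin filaments. In epidermis the desmoglein 1 and desmocollin 1 forms are known for the upper layers and the desmoglein 3 and desmocollin 3 forms for the basal layer, while corneodesmosin is added outside the cell as desmosomes are turned into the corneodesmosomes of the cornified layer. The genes described are Dsg1a, Dsg1b, Dsg3, Dsc1, Dsc2, Dsc3, Dsp, Jup, Pkp1 and Cdsn. They were chosen by name as components of these structures, with earlier results of these data known. Probe sets were matched to them through the gene symbols of the platform annotation. Of these 10 genes, 9 had a probe set that named them, 14 probe sets in all, none of which named a further gene, and Dsg3 is not analysed here.

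The tissue was back skin, cut from the same place in each animal, of mice at e18.5, shortly before birth. The Get1 -/- group held 3 mice and the Get1 +/+ group held 3 mice, with 1 array each. Get1 is an earlier name of grainyhead-like 3 (Grhl3), a transcription factor of surface epithelia, and the comparison asks which transcripts differ in skin without it. Strain, sex, litter and the deleted part of the gene are not stated in the labels. Values are MAS5 signals, in arbitrary units on a linear scale, that were deposited already scaled to a common mean. A change is the difference of mean log2 signal, Get1 -/- minus Get1 +/+, with its standard error (SE) from limma, a linear model fitted across all kept probe sets. A call is an adjusted p under 0.05 by Benjamini-Hochberg over the 22519 probe sets kept by a filter on low signal. A probe set is a group of short probes read together, and its signal depends on how well those probes bind, so changes are compared between arrays. Levels of different probe sets are used to filter, to call one bright or dim, to pick a gene's brightest and to sum marker lists. In such sums the brightest probe sets weigh most.

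On the whole arrays, correlations of log2 signal between arrays ran from 0.916 to 0.971. The Grhl3 probe set read 246 to 413 in Get1 -/- skin and 478 to 934 in Get1 +/+ skin, without overlap. Its log2 change was -0.98, with an adjusted p of 0.737 by limma, so it was not called. This probe set checks the labels only if it lies in the deleted part of the gene. The defining keratins of the epidermis were bright on every array, with Krt5 at 18878 or more and Krt10 at 32618 or more. In bulk skin, fewer cells of a type and less RNA per cell cannot be told apart.

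No desmosome gene passed the test, while the direction was mostly the same. Of the 12 kept probe sets, which cover 8 genes, 0 were called with limma, against 0.0266% of all kept probe sets (6 of 22519). At an unadjusted p under 0.05 there were 2 of the 12, against 6.72% of all kept probe sets. The log2 change was below 0 in 11 of the 12, against 49.8% of all kept probe sets. The 11 include Dsp 1435493_at at -0.00069, and Dsp, Dsc1 and Dsc3 are each counted more than once. Genotypes did not overlap in 2 of the 12, Jup and Cdsn, both lower in Get1 -/- skin, against 6.51% of all kept probe sets. The median log2 change of the 12 was -0.29, beside 0.0015 over all kept probe sets. Members vary together across arrays, so these counts are not independent of each other. The members were also chosen with earlier results of these data known, so the counts describe them and test nothing. Without Get1 -/- replicate 1 the median was -0.17, without Get1 -/- replicate 2 it was -0.48 and without Get1 +/+ replicate 2 it was -0.18.

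Mice carry the numbers 1 to 3 within a genotype, and the labels do not say that equal numbers mark pairs. Deviations from genotype means correlated weakly between same-numbered mice, at 0.133, 0.26 and 0.14. Mice of unequal numbers were not compared in this way, so the pairing is an assumption of the block. With the replicate number as a block, 35 probe sets were called over the array (0.155%) and 0 of the 12. At an unadjusted p under 0.05 there were then 5 of the 12, against 10.2% of all kept probe sets. These were Dsp 1427610_at, Jup, Cdsn, Dsc1 1421460_at and Dsc3 1427637_a_at. In 8 of the 12 the Get1 -/- array was below the Get1 +/+ array of the same number in all 3 pairs, against 17.1% of all kept probe sets. They were those 5, Pkp1, Dsc3 1434534_at and Dsp 1435494_s_at. These counts too concern members chosen with earlier results known and are a description. Intervals, SEs and overlaps given for single probe sets come from the comparison without the block. The smallest adjusted p among the 12 was 0.737 without the block and 0.106 with it, the lower value being that of Dsp 1427610_at.

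**Figure D1:**
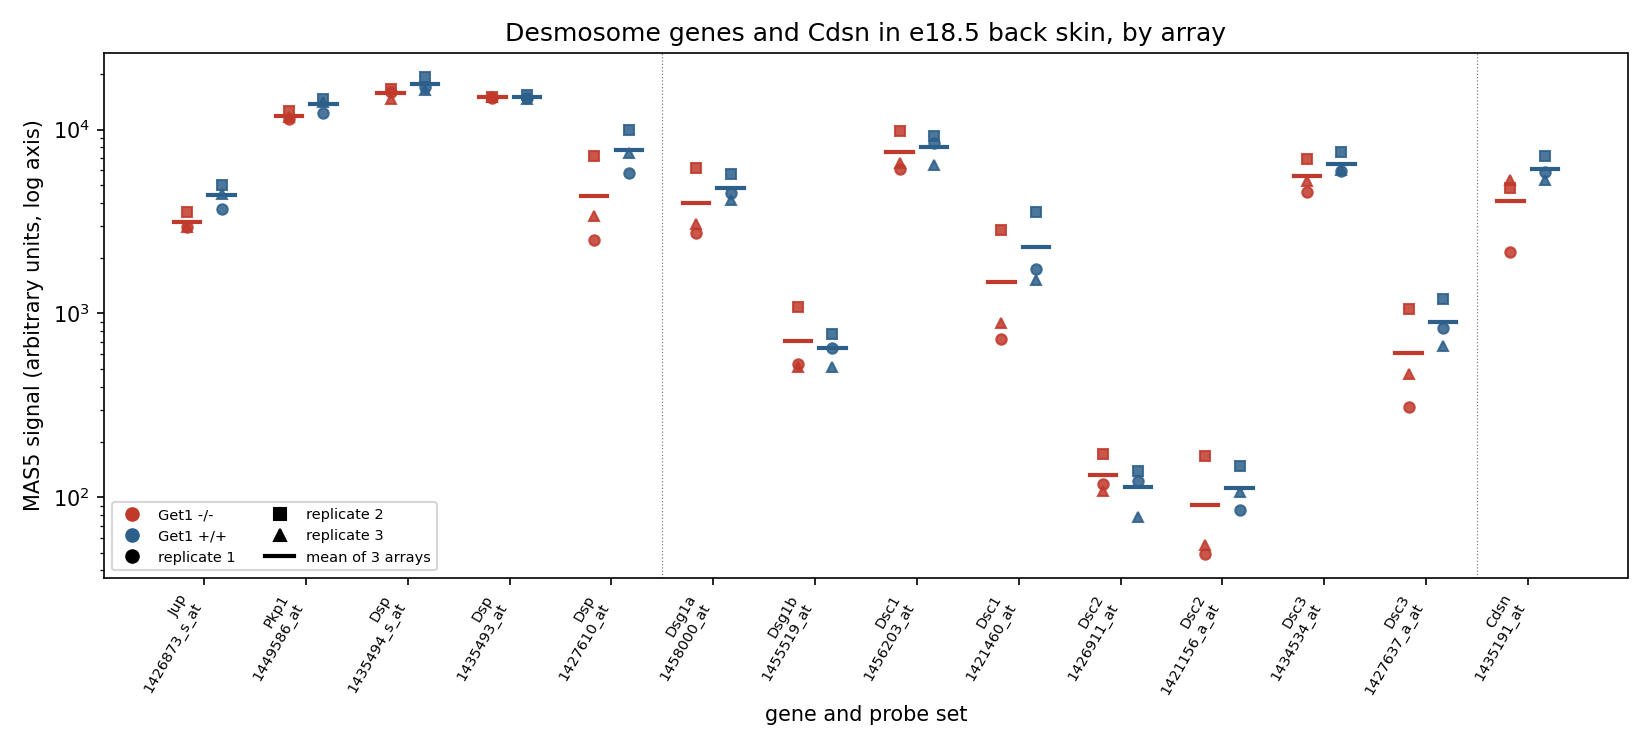
MAS5 signal (arbitrary units, log axis) of the 14 probe sets of the 9 genes on each array, Get1 -/- in red left of Get1 +/+ in blue, with marker shapes for the replicate number and bars for the mean of 3 arrays. The genotypes are apart for Jup and Cdsn, and in the cadherin probe sets Get1 -/- replicate 2 sits among or above the Get1 +/+ arrays.

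Promoter sequence is shown for Jup, Dsp and Cdsn, the members for which it was available. Each run is the 250 bases before an annotated start, 5′ to 3′ on the gene's strand, from the RefSeq promoter table of build GRCm38.p6. Of the 10 genes, 3 were matched in that table with 4 windows, Cdsn having 2 starts, and all 4 are shown. Capitals mark a match to ACCNGGTT, an added variant of the grainyhead motif, 212 bases before the second Cdsn start.

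Jup, chr11:100397791-100398040, minus strand: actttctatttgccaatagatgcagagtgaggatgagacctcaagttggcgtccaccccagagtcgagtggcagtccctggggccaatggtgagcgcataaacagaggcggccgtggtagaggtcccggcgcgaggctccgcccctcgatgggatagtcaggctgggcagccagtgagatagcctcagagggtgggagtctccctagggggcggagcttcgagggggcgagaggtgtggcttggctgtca

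Dsp, chr13:38151044-38151293, plus strand: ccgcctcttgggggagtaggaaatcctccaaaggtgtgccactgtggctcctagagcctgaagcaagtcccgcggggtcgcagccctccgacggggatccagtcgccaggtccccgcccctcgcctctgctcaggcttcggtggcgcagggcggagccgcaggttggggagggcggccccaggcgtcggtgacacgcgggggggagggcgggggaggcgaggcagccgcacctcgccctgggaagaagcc

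Cdsn first start, chr17:35542851-35543100, plus strand: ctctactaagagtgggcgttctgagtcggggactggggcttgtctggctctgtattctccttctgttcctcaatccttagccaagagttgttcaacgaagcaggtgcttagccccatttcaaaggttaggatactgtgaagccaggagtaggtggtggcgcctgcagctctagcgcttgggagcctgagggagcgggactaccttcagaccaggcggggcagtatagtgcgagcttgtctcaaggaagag

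Cdsn second start, chr17:35551878-35552127, plus strand: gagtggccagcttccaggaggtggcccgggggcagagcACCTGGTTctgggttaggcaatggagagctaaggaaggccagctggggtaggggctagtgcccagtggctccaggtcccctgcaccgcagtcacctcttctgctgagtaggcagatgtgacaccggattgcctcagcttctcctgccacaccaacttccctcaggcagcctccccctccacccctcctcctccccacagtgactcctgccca

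Motifs were searched on both strands of the whole 300-base windows, which run from 250 bases before to 50 bases after a start. AACCGGTT lay in 0 of the 4 windows and in 0.146% of all 32851 windows, and AACTGGTT in 0 of the 4 and in 0.776% of all. A variant, ACCNGGTT, of which no match can also be a full match to either of the others, was added after the windows had been read and lay in 1 of the 4 and in 2.13% of all windows. A match describes these letters and is not evidence of binding, and the absence of a match concerns these windows alone.

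Among the plaque proteins, plakoglobin was the member with the clearest separation. Jup encodes plakoglobin, the armadillo protein that binds the cadherin tails and is shared with adherens junctions. Jup (1426873_s_at) read 2959, 3545 and 2936 in Get1 -/- replicates 1 to 3, against 3692, 5019 and 4482 in Get1 +/+ replicates 1 to 3. All 3 Get1 -/- arrays lay below all 3 Get1 +/+ arrays, as they did for 6.51% of all kept probe sets. The means were 3147 ± 345 in Get1 -/- skin and 4398 ± 668 in Get1 +/+ skin (SD, n = 3 each), which puts Get1 -/- at 71.8% of Get1 +/+ on the log2 scale. The log2 change was -0.48 ± 0.16 (SE), with a 95% interval of -0.83 to -0.12, and its adjusted p by limma was 0.737. Over the 16 alternatives computed, each array left out in turn included, it lay between -0.60 and -0.36.

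Pkp1 encodes plakophilin 1, an armadillo protein of the plaque that is most abundant in stratified epithelium. Pkp1 (1449586_at) read 11410, 12560 and 11656 in Get1 -/- skin, against 12340, 14762 and 14102 in Get1 +/+ skin. Get1 +/+ replicate 1 lay below Get1 -/- replicate 2, so the genotypes overlapped. The log2 change was -0.21 ± 0.11 (SE), its 95% interval of -0.46 to 0.043 included 0, and it ran from -0.28 to -0.14 over the alternatives. Like that of Jup, the change was below 0 in each of the 16 alternatives, of which those of filter, trend and replicate block cannot move it.

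The desmoplakin probe sets differed from each other. Dsp encodes the plakin that anchors keratin filaments to the plaque. One probe set, 1427610_at, read 2520, 7157 and 3394 in Get1 -/- skin, against 5844, 10012 and 7424 in Get1 +/+ skin, and overlapped through Get1 -/- replicate 2. Its log2 change was -0.94 ± 0.35 (SE), with a 95% interval of -1.75 to -0.14 and an adjusted p of 0.737 by limma. Without Get1 -/- replicate 1 the change was -0.62, and without Get1 -/- replicate 2 it was -1.37.

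The other Dsp probe sets differed less between genotypes. Probe set 1435493_at read 14876, 15140 and 15016 in Get1 -/- skin, against 14813, 15480 and 14769 in Get1 +/+ skin, a spread of 1.05 times between the lowest and the highest array. Its log2 change was -0.00069, with a 95% interval of -0.21 to 0.21. Probe set 1435494_s_at read 16041, 16733 and 14752 in Get1 -/- skin, against 17118, 19380 and 16347 in Get1 +/+ skin. Its log2 change was -0.15 ± 0.11 (SE), with genotypes that overlapped, and it was -0.10 without Get1 -/- replicate 3 and -0.080 without Get1 +/+ replicate 2. An interval below 0 was thus seen for 1 of the 3 Dsp probe sets. The mean levels of 1435493_at and 1435494_s_at stood at percentiles 99.4 and 99.5 of all probe sets without controls, against 97.7 for 1427610_at. Whether probe sets this bright show a change in full was not tested.

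**Figure D2:**
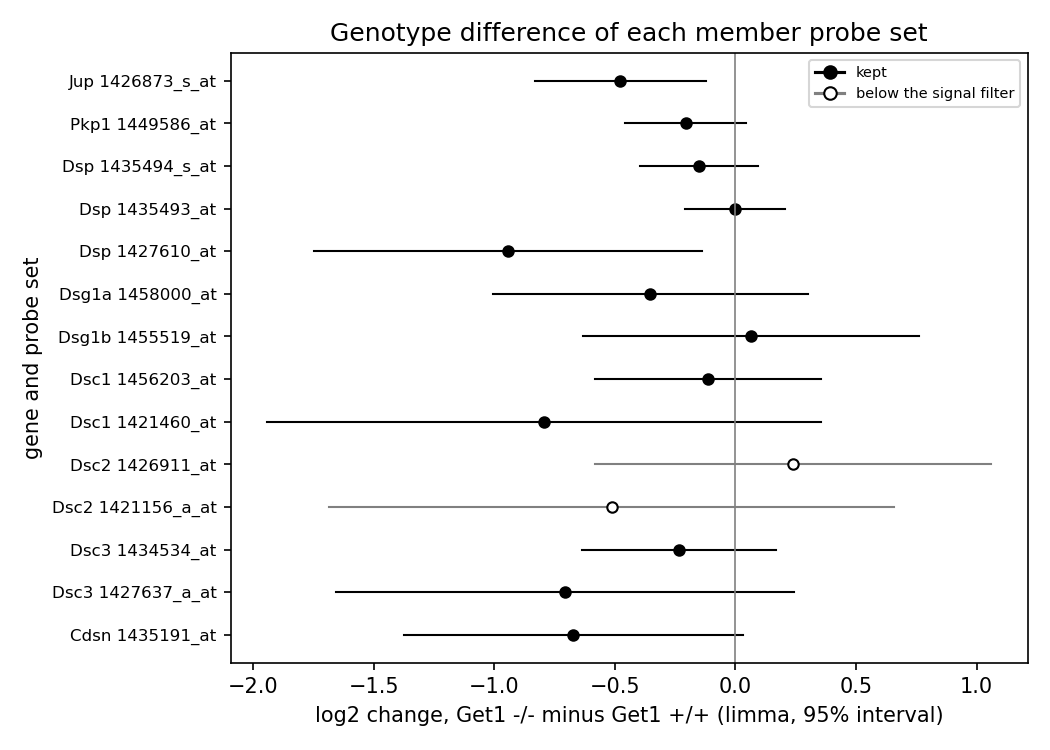
Log2 change of each member probe set, Get1 -/- minus Get1 +/+, with its 95% interval from limma; filled points were kept by the signal filter and open points, the 2 of Dsc2, were not. The intervals of Jup and of Dsp 1427610_at lie below 0, all other intervals include 0, and 0 of the 12 kept probe sets passed after adjustment.

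The desmosomal cadherins showed wide spread within the Get1 -/- group, as Dsp 1427610_at and Cdsn also did. For Dsc1 1421460_at and Dsc2 1426911_at the SD in Get1 +/+ skin was nearly as large, and for the other cadherin probe sets it was smaller. In the RefSeq annotation the cadherin genes lie side by side on chromosome 18, in the order Dsc3, Dsc2, Dsc1, Dsg1c, Dsg1a, Dsg1b, Dsg4, Dsg3 and Dsg2. In the 8 probe sets of the cadherin members the highest array was Get1 -/- replicate 2 in 5 and Get1 +/+ replicate 2 in 3. In the 5 plaque probe sets the highest array was Get1 +/+ replicate 2 in all 5.

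Dsg1a and Dsg1b are mouse copies of desmoglein 1, the cadherin of differentiated layers that is the target of autoantibodies in pemphigus foliaceus. Dsg1a (1458000_at) read 2748, 6171 and 3068 in Get1 -/- skin, against 4544, 5772 and 4133 in Get1 +/+ skin. The 1 high Get1 -/- array exceeded every Get1 +/+ array and the other two lay below them all. The log2 change was -0.35 ± 0.29 (SE), and it was -0.72 once Get1 -/- replicate 2 was left out and -0.13 once Get1 -/- replicate 1 was. Leaving out Get1 -/- replicate 3 gave -0.21 and leaving out Get1 +/+ replicate 2 gave -0.22. Dsg1b (1455519_at) read 531, 1087 and 511 in Get1 -/- skin, against 653, 772 and 511 in Get1 +/+ skin. It was the only kept member probe set with a change above 0, at 0.065 ± 0.31 (SE), and its sign turned to -0.29 without Get1 -/- replicate 2.

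Desmocollin 1 is the desmocollin of the upper epidermis. Dsc1 (1456203_at) read 6106, 9856 and 6601 in Get1 -/- skin, against 8464, 9235 and 6430 in Get1 +/+ skin, and its log2 change was -0.11 ± 0.21 (SE), which turned to 0.021 without Get1 -/- replicate 1 and was -0.32 without Get1 -/- replicate 2. The other Dsc1 probe set, 1421460_at, read 723, 2845 and 893 in Get1 -/- skin, against 1750, 3585 and 1526 in Get1 +/+ skin. There Get1 -/- replicates 1 and 3 lay below all Get1 +/+ arrays and replicate 2 lay within them. Its log2 change was -0.79 ± 0.51 (SE), with a 95% interval of -1.94 to 0.35. It was -0.41 without Get1 -/- replicate 1, -1.40 without Get1 -/- replicate 2 and -0.42 without Get1 +/+ replicate 2.

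Desmocollin 3 is the form known for basal and lower layers. Dsc3 (1434534_at) read 4559, 6944 and 5272 in Get1 -/- skin, against 5975, 7551 and 6017 in Get1 +/+ skin, with a log2 change of -0.23 ± 0.18 (SE). The other Dsc3 probe set, 1427637_a_at, read 308, 1060 and 470 in Get1 -/- skin, against 831, 1204 and 666 in Get1 +/+ skin, with a log2 change of -0.71 ± 0.42 (SE). In both, Get1 -/- replicates 1 and 3 lay below all Get1 +/+ arrays while Get1 -/- replicate 2 did not. Without Get1 -/- replicate 1 the changes were -0.098 for 1434534_at and -0.31 for 1427637_a_at, and without Get1 -/- replicate 2 they were -0.40 and -1.20. Leaving out Get1 +/+ replicate 2 gave -0.12 for 1434534_at. The adjusted p by limma was 0.811 for the first and 0.768 for the second.

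Desmocollin 2 was dim. Its 2 probe sets fell under the signal filter and were not among the 12. Dsc2 (1421156_a_at) read 49.2, 168 and 55.3 in Get1 -/- skin, against 84.8, 148 and 106 in Get1 +/+ skin. The other Dsc2 probe set, 1426911_at, read 117, 171 and 108 in Get1 -/- skin, against 123, 139 and 77.9 in Get1 +/+ skin. In a fit of all probe sets their log2 changes were -0.51 ± 0.52 and 0.24 ± 0.37 (SE), opposite in sign and each smaller than its SE.

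The suprabasal and basal desmocollins gave no detectable difference in their genotype effect. Within each array the log2 signal of Dsc1 (1456203_at) minus that of Dsc3 (1434534_at), centred on its mean over the 6 arrays, was 0.065, 0.15 and -0.032 in Get1 -/- skin, against 0.15, -0.066 and -0.26 in Get1 +/+ skin. The difference between genotypes was 0.12 on the log2 scale, and a two-sided exact permutation test gave p = 0.4, where 3 mice against 3 cannot go below 0.1. The sign depended on the probe sets chosen. With Dsc1 1421460_at the difference was -0.56 against Dsc3 1434534_at and -0.088 against Dsc3 1427637_a_at, while Dsc1 1456203_at against Dsc3 1427637_a_at gave 0.59. The corresponding comparison of desmoglein 1 with Dsg3 was not run. The overlap of the genotypes in Dsc1 minus Dsc3 does not show that the forms respond alike.

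Corneodesmosin was lower mainly through 1 array. Cdsn encodes the secreted glycoprotein of corneodesmosomes, whose breakdown lets corneocytes be shed and whose loss is known to open the skin barrier. Cdsn (1435191_at) read 2164, 4837 and 5306 in Get1 -/- skin, against 5903, 7158 and 5330 in Get1 +/+ skin. The genotypes did not overlap, but the highest Get1 -/- array and the lowest Get1 +/+ array were nearly equal. The means were 4102 ± 1695 in Get1 -/- skin and 6130 ± 935 in Get1 +/+ skin (SD, n = 3 each), and the log2 change was -0.67 ± 0.31 (SE), with a 95% interval of -1.38 to 0.030. Without Get1 -/- replicate 1 it was -0.26, and without Get1 -/- replicate 3 it was -0.91.

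Cdsn was also set against Dsp within each array. The log2 signal of Cdsn minus that of Dsp (1435494_s_at), centred on its mean over the 6 arrays, was -1.10, 0.00045 and 0.32 in Get1 -/- skin, against 0.25, 0.35 and 0.17 in Get1 +/+ skin. Only Get1 -/- replicate 1 stood far below the other arrays. The difference between genotypes was -0.52, or -0.10 without that array, and the two-sided exact permutation p was 0.3. Over the 2 pairs tested the adjusted p was 0.4 for each. With the other Dsp probe sets the difference was 0.27 against 1427610_at and -0.67 against 1435493_at, so its sign too depended on the probe set.

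Probe sets of the same gene went apart in a shared way. In Dsp, Dsc1, Dsc2 and Dsc3, the probe set with the widest spread was lowest relative to its brighter partner in Get1 -/- replicates 1 and 3. For Dsp, the log2 signal of 1427610_at minus that of 1435494_s_at, centred on its mean, was -1.06, 0.38 and -0.51 in Get1 -/- skin, against 0.059, 0.66 and 0.47 in Get1 +/+ skin. For Dsc1 the same difference between 1421460_at and 1456203_at was -0.83, 0.45 and -0.64 in Get1 -/- skin, against -0.029, 0.88 and 0.17 in Get1 +/+ skin. So a Get1 -/- array, replicate 2, went with the Get1 +/+ arrays in both genes.

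The range of such a difference over the 6 arrays was 1.72 for this pair of Dsp probe sets, 1.71 for Dsc1 and 1.24 for Dsc3 on the log2 scale. Over 8320 pairs of kept probe sets of the same gene the median range was 0.765, and the 3 pairs stood at the percentiles 93.7, 93.6 and 81.0. The other Dsp pair, 1435493_at and 1435494_s_at, had a range of 0.35 at percentile 10.0. The part of the transcript that each probe set reads is not used here.

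**Figure D3:**
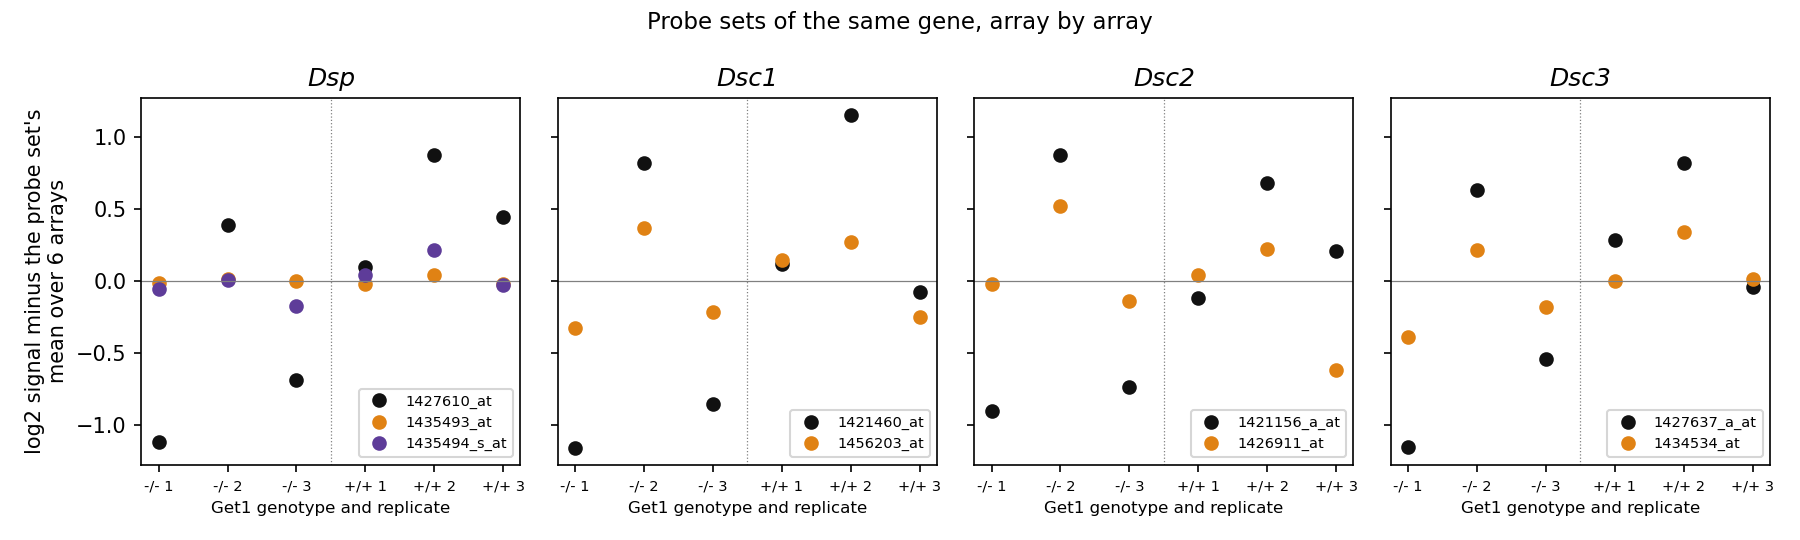
Log2 signal of each probe set minus its own mean over the 6 arrays, for the 4 genes with several probe sets, Get1 -/- arrays left of Get1 +/+ arrays. The black points (1427610_at, 1421460_at, 1421156_a_at and 1427637_a_at) spread further than the coloured points of the same gene, with Get1 -/- replicates 1 and 3 lowest in each.

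Across arrays the members varied together. Of the 91 pairs of member probe sets, 89 had a Pearson correlation of log2 signal above 0 over the 6 arrays, with a median of 0.733, as a description in which pairs share arrays, genotype and RNA. The mean log2 deviation of the 9 genes, each by its brightest probe set, was -0.37, 0.26 and -0.20 in Get1 -/- replicates 1 to 3, against 0.064, 0.33 and -0.077 in Get1 +/+ replicates 1 to 3. Get1 -/- replicate 2 was thus the array second to Get1 +/+ replicate 2.

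The ratio of the 3′ to the 5′ Gapdh control probe set, used as a rough measure of how much full-length RNA was labelled, followed nearly the reverse order. It was 0.844, 0.732 and 0.828 in Get1 -/- replicates 1 to 3, against 0.810, 0.692 and 0.777 in Get1 +/+ replicates 1 to 3. The arrays with the lowest ratios, Get1 +/+ replicate 2 and Get1 -/- replicate 2, had the highest desmosome signal, and those with the highest ratios, Get1 -/- replicates 1 and 3, had the lowest. The same ratio for the actin control, 1.35 to 1.49 over the 6 arrays, was highest in Get1 -/- replicate 2 and did not follow this order. Nor did the ratio of the 3′ to the middle actin probe set. It was highest in Get1 -/- replicate 2, at 2.23, and lowest in Get1 +/+ replicate 2, at 1.56. With the log2 Gapdh ratio as a covariate, an alternative added after the data were seen, the median change of the 12 kept probe sets was -0.12. In that fit the log2 change was -0.36 for Jup, -0.56 for Dsp 1427610_at and -0.49 for Cdsn. Between same-numbered arrays the Gapdh ratio was always higher in Get1 -/- skin, so this fit cannot fully separate that ratio from genotype. The actin ratios ordered the arrays otherwise, so the Gapdh ratio alone does not stand for RNA quality. The part of RNA quality in the result was not tested beyond this.

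**Figure D4:**
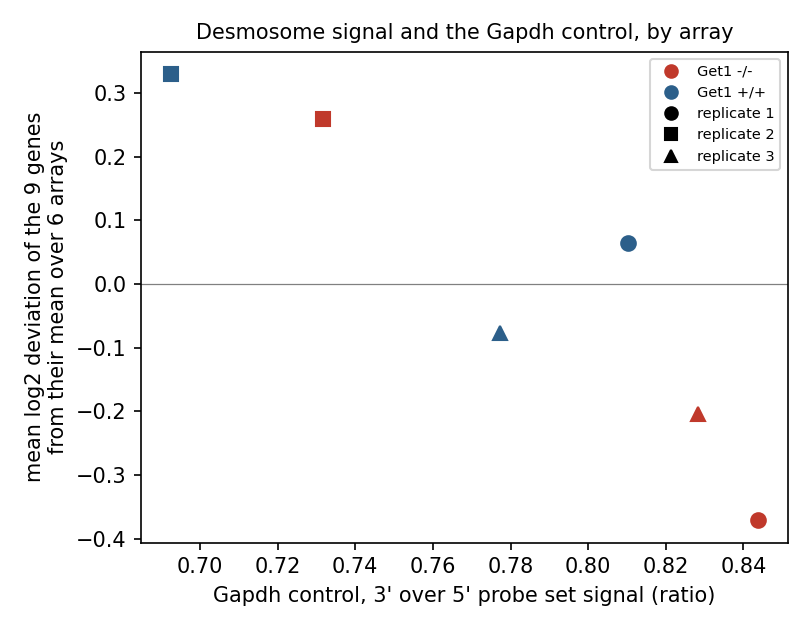
Mean log2 deviation of the 9 genes from their mean over 6 arrays (vertical axis) against the ratio of 3′ to 5′ Gapdh control signal (horizontal axis), 1 point per array, Get1 -/- in red and Get1 +/+ in blue. The point at a ratio of 0.692 is highest, at 0.33, and the point at 0.844 is lowest, at -0.37.

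The arrays were cut into a brighter and a dimmer set at the largest gap in mean log2 signal of the beta-actin controls. Such a cut can always be made, and no label records it. Get1 -/- replicate 3, at 14.22, lay between Get1 +/+ replicate 3 at 13.99 and Get1 -/- replicate 1 at 14.51. In the set with high actin signal, Get1 -/- replicate 1 against Get1 +/+ replicates 1 and 2, all 12 kept probe sets were lower in Get1 -/- skin, with a median log2 difference of -0.55. In the set with low actin signal, Get1 -/- replicates 2 and 3 against Get1 +/+ replicate 3, 5 of the 12 were lower and the median was 0.019. Jup differed by -0.54 in the first set and by -0.47 in the second, and Pkp1 by -0.24 and -0.22. Dsp 1427610_at differed by -1.60 and -0.59, Cdsn by -1.59 and -0.073, Dsc3 1434534_at by -0.56 and 0.0080 and Dsg1a by -0.90 and 0.074. Each of these values rests on a single array of 1 genotype.

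Other genes of the desmosome were also mostly lower without passing the test. Of 8 further desmosome genes listed, 5 had a kept probe set of their own. Of these, 0 were called, 2 had an unadjusted p under 0.05 and 4 were lower, with a median log2 change of -0.19. Over all kept probe sets 0.0266% were called, 6.72% had an unadjusted p under 0.05 and 49.8% were lower. Ppl, which encodes periplakin, a plakin of the desmosome and cornified envelope, read 1969, 2976 and 2592 in Get1 -/- skin, against 4007, 5261 and 4313 in Get1 +/+ skin. Its log2 change was -0.86 ± 0.18 (SE), with genotypes that did not overlap and an adjusted p of 0.505 by limma. Evpl, which encodes its partner envoplakin, had a log2 change of -0.38 ± 0.15 (SE), also without overlap. Log2 changes were -0.19 for Perp, a tetraspan membrane protein of desmosomes, -0.10 for the plakophilin gene Pkp3 and 0.065 for Dsg2.

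Adherens junction genes, which share plakoglobin with desmosomes, were lower in 9 of 9, against 49.8% of all kept probe sets. Their median log2 change was -0.31, with 0 called and 1 at an unadjusted p under 0.05, against 6.72% of all kept probe sets. That gene was Nectin4, a cell adhesion molecule, which read 389, 396 and 341 in Get1 -/- skin, against 533, 782 and 808 in Get1 +/+ skin. Log2 changes were -0.31 ± 0.19 (SE) for the E-cadherin gene Cdh1 and -0.17 ± 0.089 (SE) for the beta-catenin gene Ctnnb1, whose genotypes did not overlap.

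Proteases that cut corneodesmosomes, and their inhibitors, were lower in 9 of 11, against 49.8% of all kept probe sets. Their median was -0.15, with 0 called and 2 at an unadjusted p under 0.05, against 6.72% of all kept probe sets. Klk5, a kallikrein that starts the cleavage of corneodesmosin and desmoglein 1, read 1396, 3085 and 2409 in Get1 -/- skin, against 2979, 5930 and 4576 in Get1 +/+ skin. Log2 changes were -0.99 ± 0.32 (SE) for Klk5 and -0.97 ± 0.38 (SE) for the kallikrein gene Klk8, with genotypes that overlapped in both. They were -0.36 ± 0.25 (SE) for Klk7, a further kallikrein of the cornified layer, and -0.027 ± 0.31 (SE) for the inhibitor gene Spink5. Get1 -/- replicate 1 was the lowest array for Klk5, Klk7, Klk8 and Spink5, as it was for Cdsn.

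Keratinocyte markers show what the rest of the epidermal signal did. Of all kept probe sets, 49.8% were lower and 6.72% had an unadjusted p under 0.05. Basal markers were lower in 6 of 7 with a median log2 change of -0.12 and 0 at an unadjusted p under 0.05, and the log2 change of Krt5 was -0.12 ± 0.097 (SE). Suprabasal markers were lower in 8 of 8 with a median of -0.50, 0 called and 4 at an unadjusted p under 0.05, and the log2 change was -2.51 ± 0.32 (SE) for Krt77, with an adjusted p of 0.0822 by limma, against -0.12 for Krt1 and -0.099 for Krt10. The summed signal of the suprabasal markers ran from 114771 to 156290 in Get1 -/- skin and from 164001 to 171717 in Get1 +/+ skin. Inner root sheath markers were lower in 7 of 7, with sums of 6249 to 11622 in Get1 -/- skin and 8093 to 36382 in Get1 +/+ skin, and their highest mean log2 deviation, 1.51, was that of Get1 +/+ replicate 3, whose desmosome deviation was -0.077.

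Markers of other cell types differed too. The shares over all kept probe sets were again 49.8% lower and 6.72% at an unadjusted p under 0.05. Skeletal muscle markers were higher in 8 of 8, with a median log2 change of 0.34 and sums of 98914 to 147058 in Get1 -/- skin and 82431 to 128228 in Get1 +/+ skin. Their mean log2 deviation was 0.38, -0.20 and 0.49 in Get1 -/- replicates 1 to 3, against 0.19, -0.71 and -0.15 in Get1 +/+ replicates 1 to 3, so the arrays with the most desmosome signal, replicate 2 of each genotype, had the least muscle signal. Macrophage and lymphoid markers were higher in 7 of 8, with sums of 14506 to 16262 in Get1 -/- skin and 9780 to 13222 in Get1 +/+ skin. Endothelial markers were higher in 7 of 8 and adipocyte markers in 4 of 5, with medians of 0.20 and 0.13. Dermal fibroblast markers were lower in 3 of 7 and melanocyte markers in 5 of 6, with medians of 0.040 and -0.46. In all of these lists 0 genes were called with limma, the numbers at an unadjusted p under 0.05 being 1 for the inner root sheath, 2 for muscle, 5 for macrophages, 1 for adipocytes, 2 for melanocytes and 0 for the endothelial and fibroblast lists, and the lowest mean signal of any kept marker among them was 276. The part of tissue makeup in the desmosome result was not tested.

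By Pearson correlation over the 6 arrays with the mean profile of the 9 genes, the 5 most similar other genes were Pdlim5 (0.992), Abi1 (0.992), Arid2 (0.989), Glce (0.989) and Sbf2 (0.984). With 6 arrays a high value is common, since 2.14% of the 19695 candidate probe sets reached 0.9 or more. Pdlim5 read 335, 751 and 384 in Get1 -/- skin, against 566, 916 and 474 in Get1 +/+ skin, with the same high replicate 2 in each genotype.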

How the data were processed

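The deposited values are MAS5 signal intensities on a linear scale, 1 column per array. MAS5 is named in the submitters' processing notes without a version, and the genome build is not given in the sources used here. The 2% trimmed mean was 500 on every array, so no further scaling was applied, and log2 was taken here. Of 45101 probe sets, 64 controls were left out, and the brighter part of the rest was kept, by mean log2 signal from the median upwards, which corresponds to a signal of 137. The test was limma's two-sided moderated test (version 3.58.1, R 4.3.3), using lmFit and then eBayes with its trend option. Its code was first run on simulated, independent probe sets with planted changes larger than that of any member here. That run does not show how small a change could be detected in these arrays. Symbols came from the platform annotation. The number of arrays limits the precision, and labels do not say whether the mice shared litters.

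The members and lists were chosen with earlier results of these data known. Named genes were all member probe sets, genes from among the 4 of smallest p in each other list, Grhl3 and the 5 genes most alike by correlation. Dsg2, Cdh1, Spink5, Krt1 and Krt10 were named for what they are known to do, with values known.

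Deviations from genotype means correlated at 0.133, 0.26 and 0.14 between same-numbered mice over the kept probe sets. Each lay above the limit of 0.1, so the numbers of the labels were treated as pairs in the fit with the block. The labels do not state such pairs, and mice of unequal numbers were not compared. The comparison of desmoglein 1 with Dsg3 was planned and not run.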

Additional observations from a re-analysis of the deposited data

How the results depend on the processing

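Under 16 alternatives for each kept member probe set (17 where a gene had several and their mean was taken), 0 member probe sets passed the threshold, with smallest adjusted p values from 0.106 with the replicate block to 0.997 without Get1 +/+ replicate 2. Of the member values, 184 kept their sign and 11 did not, all in the 3 probe sets with the smallest changes. The filter, trend and replicate block alternatives cannot move a log2 change, so the signs kept under them were fixed in advance. Dsg1b turned to -0.15 with array weights, -0.29 without Get1 -/- replicate 2 and -0.093 without Get1 +/+ replicate 3. Dsc1 1456203_at turned to 0.021 without Get1 -/- replicate 1 and 0.052 with the Gapdh covariate. Dsp 1435493_at turned to 0.046 with quantile normalization, 0.0040 with median centring, 0.0021 with the actin set as a block, 0.015 with the Gapdh covariate, 0.0058 without Get1 -/- replicate 1 and 0.021 without Get1 +/+ replicate 2. With arrays left out, Dsg1b ran from -0.29 to 0.26, Dsc1 1456203_at from -0.32 to 0.021 and Dsp 1435493_at from -0.013 to 0.021. The median member change ran from -0.48 to -0.17 with arrays left out. Over the whole array 6 probe sets were called, 13 with median centring, 35 with the replicate block (pairing by the labels' numbers), 12 with the Gapdh covariate, which was added after the data were seen, and 4 to 25 with arrays left out, 25 being the count without Get1 +/+ replicate 1. The replicate block changed no call among the members, with 5 of 12 in place of 2 at an unadjusted p under 0.05. Over all kept probe sets that share rose too, from 6.72% to 10.2%. The differences Dsc1 minus Dsc3 and Cdsn minus Dsp ran from 0.021 to 0.22 and from -0.81 to -0.10 with arrays left out, but their signs turned with the probe sets, an alternative added after the data were seen. Dsc1 minus Dsc3 was -0.088 with 1421460_at and 1427637_a_at and -0.56 with 1421460_at and 1434534_at, and Cdsn minus Dsp was 0.27 with 1427610_at. The causes were not tested. The planned comparison with Dsg3 and its alternatives were not run. Depth is not defined for arrays, and signal near background limits Dsc2.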
